A study of Bos grunniens and Bos taurus with 11 samples.

Results

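Lung tissue of yaks living at 4200 m was compared with lung tissue of yaks living at 3400 m by small RNA sequencing. The comparison used 6 of the 11 libraries of the series, chosen by their altitude and breed labels: 3 from 4200 m, the group T2, and 3 from 3400 m, the group T1. Per the study's methods the animals were adult male yaks, each library was a separate animal, and the labels name no treatment in either group. The T1 yaks all came from Maqu County in Gansu. The T2 yaks came from a different county of Tibet each, Linzhou (T2 1), Bange (T2 2) and Dangxiong (T2 3), so that altitude and place of origin cannot be told apart and no T2 place has a second animal. The tissue label is lung, but the extraction text given with the samples speaks of retinas. The other 5 libraries, of 2 Zaosheng cattle from 1500 m (CON) and 3 yaks from 5000 m (T3), helped to estimate the spread between animals and are not described for their own sake.

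MicroRNAs (miRNAs) are cut from the stem of a hairpin precursor, whose left and right sides give the 5p and the 3p arm, and a mature arm bound by an Argonaute protein pairs with messenger RNAs and lowers their translation or stability. In lung, miRNAs of endothelium, smooth muscle, ciliated cells and blood are abundant, and some respond to low oxygen. Plants make miRNAs as well, with families of their own that animals do not encode, such as miR166, which pairs with messages of HD-ZIP III transcription factors.

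The tables listed 1377 names, of which 331 were known names taken from a public catalogue and 1046 were predicted from the reads and are given here by precursor number and arm (m1080-5p). The known names carried 50 species prefixes, each of a plant or alga, and 0 carried the cattle prefix. Of 22 animal miRNAs looked for by number as a check of the tissue (13 of lung and airway, 8 of blood cells and 1 of hypoxia), 0 were among the names, so the labelled tissue could not be checked by its markers. Sequences of the names were not analysed here, and none is printed. Abundance was given in RPM, reads per 1000000 assigned reads, and reads recovered from it totalled 1536041, 2428679 and 2527924 in T1 and 5388032, 1589131 and 2436521 in T2. A single read was therefore worth 0.186 RPM in T2 1 and 0.651 RPM in T1 1. Values below are given for libraries 1, 2 and 3 of a group in that order, and since each is a share of a library of lung RNA, fewer cells of a type and less RNA per cell cannot be told apart.

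The make-up of the libraries varied widely among animals of one altitude. The most abundant name, m1080-5p, held 21.7%, 55.5% and 55.0% of the reads in T1 and 64.6%, 35.1% and 63.0% in T2. The means of 44.1 ± 19.3% and 54.2 ± 16.6% (SD, n = 3 each) did not differ beyond this spread (exact permutation test, two-sided, p = 0.5), and T1 1 and T2 2 lay below the other 4 libraries. The 10 most abundant names of each library together held 87.2 ± 4.09% of reads in T1 and 82.3 ± 7.49% in T2 (SD, n = 3 each), with T2 2 the lowest at 73.8%. Most known names end in 2 numbers for where the read matched the catalogue sequence, of which the second is above the first (rising) or below it (falling). Known names came to 2157, 2419 and 1741 RPM in T1 and to 644, 556 and 2238 RPM in T2. T2 3 was thus inside the T1 range for known names while T2 1 and T2 2 were below it (exact permutation p = 0.3 for the difference in means). Arm 5p supplied 93.8%, 86.4% and 87.5% of the reads of predicted names in T1 and 85.8%, 72.7% and 88.9% in T2. Among 13 such measures per library, the smallest Benjamini-Hochberg adjusted p was 0.867 by the exact permutation test. With 3 libraries against 3 its smallest possible unadjusted p is 0.1. No measure could therefore have reached 0.05, whatever its values.

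Most names with reads were shared by both altitudes or rested on single libraries. At least 1 read was found for 972 names in T1 or T2, of which 442 were in both groups, 296 in T1 alone and 234 in T2 alone. Of the 972 names, 464 had reads in 1 library of the 6, and 179 had reads in all 6. Names with reads in each library of one group and in none of the other numbered 3 for T1 and 3 for T2, and 0 when 10 reads were required. Libraries were of unequal depth, so the names expected at the depth of the smallest library, 1536041 reads, were also computed. These came to 407, 441 and 434 in T1 and to 409, 375 and 371 in T2. The means of 427 ± 17.7 and 385 ± 20.8 names (SD, n = 3 each) gave an exact permutation p of 0.2 (adjusted p = 0.867), and the groups overlapped through T1 1 and T2 1.

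No name passed the test across all names between 4200 m and 3400 m. Among 310 names that averaged 1 RPM or more over the 11 libraries, 0 (0.0%) reached a Benjamini-Hochberg adjusted p under 0.05 with at least a 2-fold difference in limma on log2(RPM + 1), and the smallest adjusted p was 0.580. Before adjustment, 17 names (5.48% of those tested) had a p under 0.05 with a 2-fold difference, 12 of them higher (3.87%) and 5 lower (1.61%) in T2. DESeq2 on the recovered reads called 3 names (0.968%), m0149-5p and m0150-5p as higher and m0860-5p as lower, and edgeR's quasi-likelihood test called 0, with 23 at an unadjusted p under 0.05. The library T2 3 bore on the count: without it limma called 4 names, m0149-5p, m0150-5p, m0151-5p and m1080-3p, each higher in T2. Leaving out T1 1 gave 1 call, m0860-5p as lower in T2 (limma adjusted p = 0.0469). A difference of 2-fold or more in either direction was estimated for 134 of the 310 names, against a median 95% confidence half-width of 1.91 on the log2 scale and a median within-group SD of 1.07.

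**Figure D1:**
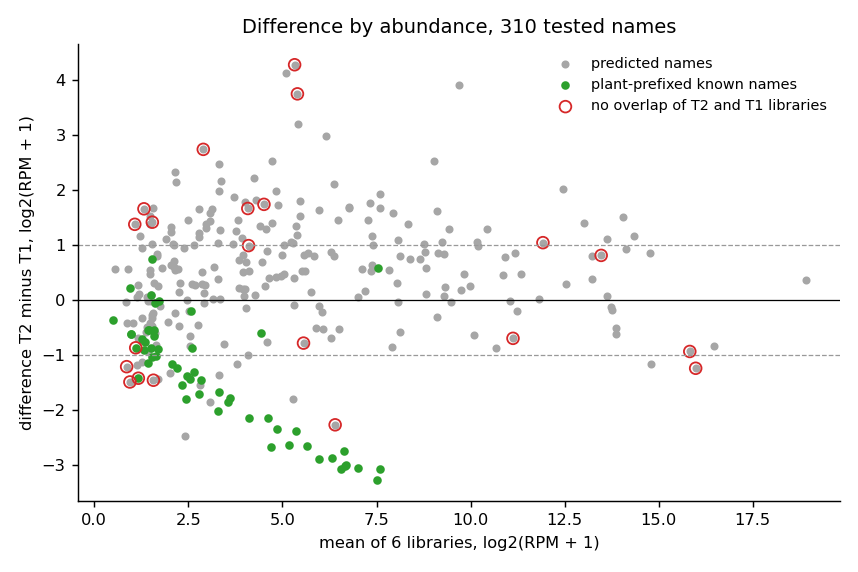
Log2 difference T2 minus T1 (vertical axis, on the log2(RPM + 1) scale) against mean abundance in RPM (horizontal log axis) for the 310 tested names, with predicted and known names marked apart. Known names lie mostly below 0 and predicted names mostly above it, and 0 names reach the adjusted threshold.

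Predicted and known names fell on opposite sides of 0. Of 255 predicted names, 183 were estimated higher and 72 lower in T2 (median log2 difference 0.55). Of 55 known names, 4 were estimated higher and 51 lower (median −1.31), and the median of all 310 names was 0.28. Leaving out T2 2 moved the medians to 0.17 for predicted names, −0.69 for known names and 0.02 for all names. With T2 3 as the T2 library alone the signs turned, to −0.10 for predicted and 0.09 for known names. The 110 predicted 3p arms had a median of 0.82 and the 145 predicted 5p arms one of 0.30, which was −0.13 under TMM. These are counts of estimates and not of calls, since 0 members of any of these sets were called. Other scalings moved the centre: under TMM the median of all names was −0.10, under RLE −0.12, and with m1080-5p left out of the total 0.54. The split of unadjusted differences was 8 higher and 9 lower under TMM and 10 higher and 7 lower under RLE.

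Rank correlations were of similar size within and between the altitudes, and T2 1 and T2 2 were set apart from T2 3. Over the 310 names, Spearman's rho averaged 0.808 for the 6 pairs within a group and 0.776 for the 9 pairs between groups, as a description of points that share a library's depth and total. Over the 255 predicted names, T2 1 and T2 2 had a rho of 0.945, the highest of the 15 pairs. T2 3 was closest to T1 2 (0.927) and T1 3 (0.909), libraries that were themselves alike (0.940), and its rho with T2 1 was 0.837 and with T2 2 0.860. Over the predicted names T1 1 was the library least like the rest, with values from 0.760 to 0.815. Over the 310 names the closest pair was T1 2 and T1 3 (0.932), and T2 1 and T2 2 had 0.870. The lowest value there, 0.555, was that of T1 1 and T2 2. Counted by name, T2 3 lay within the T1 range for 198 of the 310 names, T2 1 for 123 and T2 2 for 87. For 92 names, 91 of them predicted, both T2 1 and T2 2 lay above the 3 T1 libraries, and T2 3 followed them above for 11, was within the T1 range for 61 and was below it for 20. For 58 names both lay below the T1 range, and 42 of these were known names.

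**Figure D2:**
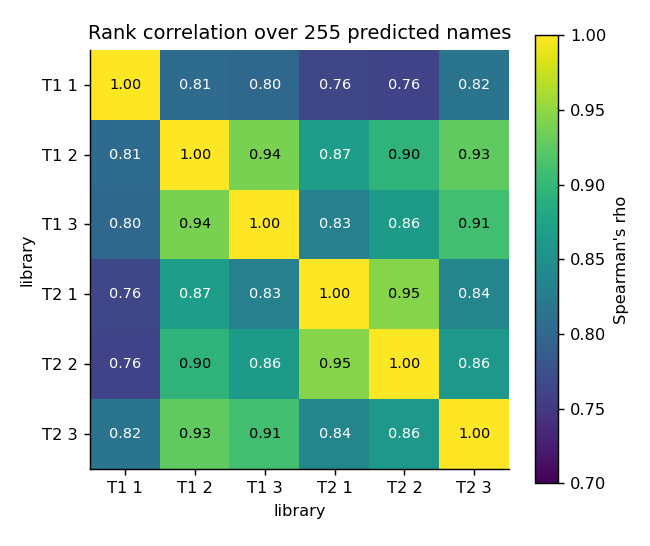
Spearman rank correlation over the 255 tested predicted names for each pair of the 6 libraries of T1 and T2, printed in the cells. The values run from 0.760 to 0.945, with T2 1 and T2 2 most alike and T1 1 apart from the other 5.

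Among names of high abundance, m0360-5p and m1356-5p stood lower in each T2 library than in any T1 library. m0360-5p held 15.8%, 6.04% and 6.20% of the reads in T1 and 2.80%, 3.89% and 4.09% in T2. This was 2.60-fold lower in the mean, with a log2 difference of −1.24 ± 0.56 (SE; limma adjusted p = 0.580), and it did not pass the adjusted threshold. The 3p arm of the same precursor was far less abundant, at 48.2, 52.3 and 94.1 RPM in T1 and 57.9, 68.0 and 48.4 RPM in T2, and its groups overlapped. m1356-5p held 11.9%, 5.35% and 5.88% in T1 and 2.74%, 5.18% and 3.75% in T2 (log2 difference −0.94 ± 0.61). T1 1 was the highest library for both names, and the values nearest to each other, 5.35% in T1 2 and 5.18% in T2 2 for m1356-5p, were close.

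The other names among the 10 most abundant overlapped between the altitudes. m1355-5p held 29.0%, 4.56% and 5.01% in T1 and 3.15%, 6.45% and 5.77% in T2, so that its mean difference came from T1 1. m0753-5p had the same shape, at 8.58%, 1.74% and 2.06% in T1 and 0.708%, 2.27% and 1.68% in T2. For m0380-3p the shares were 0.428%, 3.30% and 3.35% in T1 and 2.19%, 5.001% and 2.58% in T2. Here T1 1 was the low library, and T2 2 the high one. The same 2 libraries were at the extremes for m0271-3p (0.659%, 1.65% and 1.41% in T1, 2.57%, 4.65% and 1.46% in T2) and for m0270-3p (0.250%, 1.12% and 0.956% in T1, 1.71%, 5.50% and 0.645% in T2). The lowest and highest shares of m1358-5p were 0.455% (T1 1) and 2.96% (T2 2). m0867-5p, at 1.42%, 1.70% and 1.66% in T1 and 0.541%, 2.79% and 0.918% in T2, varied more among the T2 animals than among the T1 animals.

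Of the 310 tested names, 21 (6.77%) had T2 and T1 values that did not overlap, 11 with T2 above (3.55%) and 10 with T2 below (3.23%), and these are described without a test. At least a 2-fold difference separated 15 of them, 9 with T2 above and 6 with T2 below, and each of the 15 had a limma adjusted p of 0.580. Names with 1 to 3 reads in all in a group are given no fold.

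The largest estimate for T2 above T1 was that of m0150-5p, and names of the neighbouring numbers m0149 and m0151 were also estimated higher. m0150-5p stood at 0.651, 3.71 and 0 RPM in T1 (1, 9 and 0 reads) and at 178, 45.9 and 5.75 RPM in T2 (960, 73 and 14 reads). The T2 mean was 52.8-fold the T1 mean, with a log2 difference of 4.28 ± 1.23 (limma adjusted p = 0.580), and T2 3 was the T2 library nearest to T1. Its 3p arm was at 0 in each T1 library and at 17.4, 3.78 and 0 RPM in T2, at least 4.85-fold higher in the mean against a floor of 3 reads per library. m0149-5p was at 4.56, 65.5 and 25.7 RPM in T1 and at 4120, 767 and 9.44 RPM in T2 (log2 difference 3.90 ± 1.71, limma adjusted p = 0.580). The T2 3 value was inside the T1 range, so the groups overlapped for this name. m0149-3p did not overlap, at 0, 0.823 and 0 RPM in T1 and 29.7, 6.92 and 1.23 RPM in T2, but the T1 values came from 2 reads and the T2 3 value from 3. m0151-5p, chosen after its values were seen, was at 1.30, 2.88 and 0.396 RPM in T1 and at 198, 47.2 and 0 RPM in T2. For these 3 precursors T2 1 was the highest library and T2 2 the next, while T2 3 was near the T1 libraries or at 0.

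m1080-3p, the other arm of the most abundant precursor, was also high in T2 1 and T2 2 alone. It had 0, 2 and 0 reads in T1 and 545, 152 and 0 reads in T2, that is 0, 0.823 and 0 RPM against 101, 95.6 and 0 RPM (log2 difference 4.13 ± 1.48, limma adjusted p = 0.580). The 5p arm did not follow, since its T2 1 share was the highest of the 6 libraries and its T2 2 share the second lowest. m0217-5p was at 0 in each T1 library and at 9.84, 10.7 and 0 RPM in T2, at least 4.69-fold higher in the mean. m0334-3p, m0064-3p, m0266-3p and m0333-3p were likewise high in T2 1 and T2 2. Of these m0333-3p was the most abundant, at 856, 2503 and 1835 RPM in T1 and 10901, 16021 and 1513 RPM in T2 (5.47-fold), and its T2 3 value was within the T1 range. m0266-3p was at 35.8, 269 and 171.3 RPM in T1 and 1460, 948 and 237 RPM in T2 (5.56-fold), again with T2 3 within the T1 range. When T2 1 and T2 2 were both left out, a choice made after the data were seen, the estimates for m0149-5p, m0151-5p, m1080-3p and m0333-3p changed sign, to log2 differences of −1.04, −1.21, −0.29 and −0.06. These names were described for being high in T2 1 and T2 2, so lower estimates followed from that choice. The lowest estimates over the settings run stayed above 0 for m0334-3p (0.31), m0064-3p (0.63), m0266-3p (0.99) and m0150-5p (1.77), and m0217-5p reached 0.

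A smaller number of names were higher in T2 3 as well. m1348-3p was at 0, 11.9 and 5.54 RPM in T1 and 106, 106 and 16.8 RPM in T2, 13.1-fold higher in the mean (log2 difference 3.75 ± 1.31, limma adjusted p = 0.580). m0229-5p was at 3.26, 12.8 and 15.03 RPM in T1 and 37.9, 41.5 and 20.1 RPM in T2, 3.20-fold higher. m1538-5p was at 11.7, 9.88 and 2.37 RPM in T1 and 24.5, 27.7 and 19.3 RPM in T2, 2.98-fold higher. For m1348-3p and m0229-5p the gap between the lowest T2 and the highest T1 library was smaller than the SD of the T1 libraries (5.98 and 6.25 RPM). m0441-3p, the most abundant name of this group, was at 2515, 2655 and 1773 RPM in T1 and 9695, 3906 and 2728 RPM in T2 (2.35-fold). T2 3 and T1 2 were close to each other for it, and T2 1 stood apart. Its 5p arm, at 48.2, 23.5 and 28.9 RPM in T1 and 126, 35.2 and 22.6 RPM in T2, overlapped. m0949-5p, m0354-5p and m1526-3p were scarce, at no more than 6.98 RPM in any of the 6 libraries. The first was at 0 in each T1 library and had 4, 2 and 17 reads in T2, at least 2.05-fold higher, and T2 3 was its highest library.

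**Figure D3:**
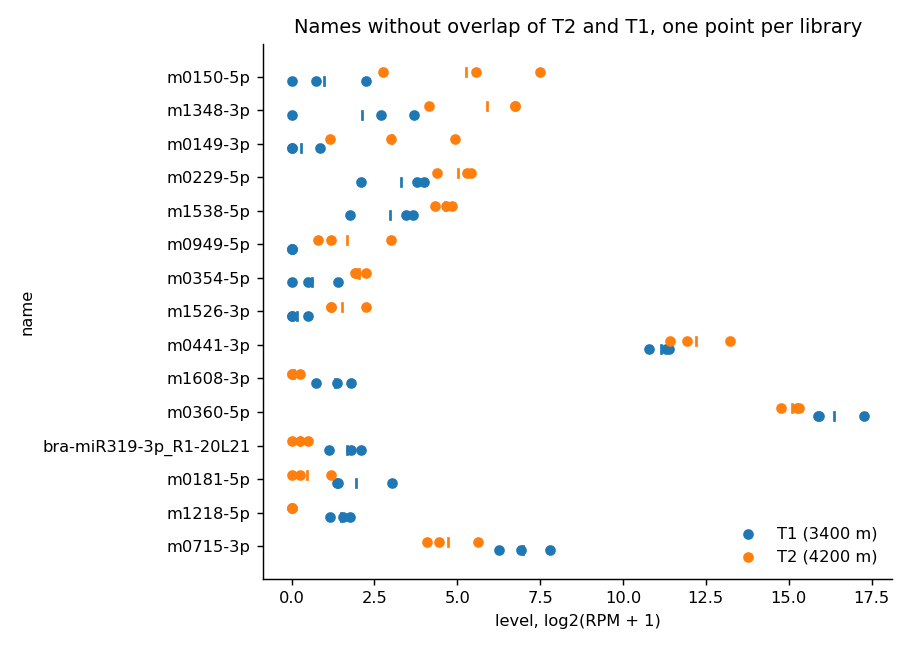
RPM in each library (points, on a log2(RPM + 1) axis) of the 15 names whose T2 and T1 libraries did not overlap and differed at least 2-fold, 9 with T2 above and 6 with T2 below. For m0150-5p, m0149-3p and m1348-3p, T2 3 is the T2 library nearest to T1, and for m0715-3p and m0360-5p each T2 library lies below each T1 library.

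Of the 6 names at least 2-fold lower without overlap, m0360-5p and m0715-3p were the more abundant. m0715-3p was at 120.4, 219 and 76.0 RPM in T1 and 16.1, 20.8 and 48.0 RPM in T2, 4.90-fold lower in the mean (log2 difference −2.27 ± 0.86, limma adjusted p = 0.580). Its T2 3 value was the one nearest to T1, and its 5p arm was listed at 0 in the 6 libraries. m1218-5p had 3, 3 and 6 reads in T1 and 0 in each T2 library, so T1 was at least 1.51-fold higher. m0181-5p was at 7.16, 1.65 and 1.58 RPM in T1 and 0.186, 1.26 and 0 RPM in T2, and m1608-3p at 0.651, 2.47 and 1.58 RPM in T1 and 0.186, 0 and 0 RPM in T2. For m1218-5p, m0181-5p and m1608-3p no library of either group held more than 11 reads. m0860-5p, called as lower by DESeq2 and by limma without T1 1, had 0, 21 and 43 reads in T1 (0, 8.65 and 17.0 RPM) and 0 in each T2 library. The T1 mean was at least 6.98-fold the T2 floor (log2 difference −2.48 ± 0.90, limma adjusted p = 0.580), but T1 1 was at 0 like T2.

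Names of a fixed list of plant families were 43 of the 55 tested known names and 40 of the 51 estimated lower at 4200 m. Of the 51 families of this list, 38 were listed in the tables with 127 names. Families of names that the study placed in its networks are on the list, miR5168, miR5658 and miR6300 among them. Of the 43 of these names abundant enough to be tested, 0 were called, and 3 were estimated higher and 40 lower in T2. Their median was −1.39 on the log2 scale, against −1.31 for the known names as a whole and 0.28 for all names. Summed by family over 288 features, 0 families (0.0%) were called, and 17 features (5.9%) had an unadjusted p under 0.05 with a 2-fold difference, 12 higher (4.17%) and 5 lower (1.74%), miR319 being the single family among them. miR166 came to 542, 578 and 411 RPM in T1 and 118, 0.629 and 596 RPM in T2 (log2 difference −3.37 ± 1.76, limma adjusted p = 0.614). miR482, which in plants pairs with messages of disease resistance proteins, came to 451, 486 and 353 RPM in T1 and 99.5, 0 and 449 RPM in T2. T2 3 was at the level of the T1 libraries for both, and T2 1 and T2 2 were below them. miR396, a regulator of growth-regulating factors in plants, came to 402.98, 453 and 314 RPM in T1 and 98.4, 1.89 and 409 RPM in T2. miR159, which pairs with messages of MYB factors, came to 146, 177 and 129.8 RPM in T1 and 33.8, 0.629 and 179 RPM in T2.

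The 3 T2 libraries stood at different levels of these families. For the 9 families of the list with 10 RPM or more in the mean of the 11 libraries, ratios to the T1 mean are given as a description. They ran from 0.136 to 0.304 in T2 1 (median 0.232), from 0 to 0.0871 in T2 2 (median 0) and from 0.885 to 1.33 in T2 3 (median 1.17). The proportions of the families among known names with rising or no match positions were close to T1 in T2 1 and T2 3 and not in T2 2. miR166 held 27.6%, 26.4% and 26.8% of such reads in T1 and 26.4%, 2.5% and 28.4% in T2. miR482 held 23.0%, 22.2% and 23.0% in T1 and 22.2%, 0% and 21.4% in T2. miR396 held 20.5%, 20.6% and 20.5% in T1 and 21.9%, 7.5% and 19.5% in T2. In T2 2 these shares rest on 25.2 RPM in all. Without T2 2 the median of the 43 names was −0.67, and with T2 3 as the T2 library alone it was 0.13. By the study's read statistics, T2 2 and the first cattle library had the lowest raw base quality of the 11 libraries. Whether this bears on their few known names was not tested. The origin of reads with plant names in lung libraries was not tested.

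miR1520 and miR319 departed from that pattern in opposite ways, and other scarce families shared each departure. miR394 was also lower in each T2 library than in any T1 library. T2 2 was also the highest of the 6 libraries for miR8154, miR6109 and miR6478, at 8.18, 5.66 and 6.92 RPM. miR1520, a family known from soybean, came to 107, 137 and 119 RPM in T1 and 176, 499 and 66.9 RPM in T2, so the library with the fewest other plant reads, T2 2, was its highest. The family was listed with 1 name, which carries falling match positions, the second number being below the first. Known names with falling positions together came to 195, 233 and 206 RPM in T1 and 195, 530.5 and 138 RPM in T2. miR319, which in plants pairs with messages of TCP factors, was scarce at 3.26, 2.47 and 2.37 RPM in T1 and 0.186, 0 and 0.821 RPM in T2. It was lower in each T2 library, T2 3 included (log2 difference −1.51, limma adjusted p = 0.614). Its one tested name, bra-miR319-3p_R1-20L21, had 5, 6 and 3 reads in T1 and 1, 0 and 1 in T2.

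**Figure D4:**
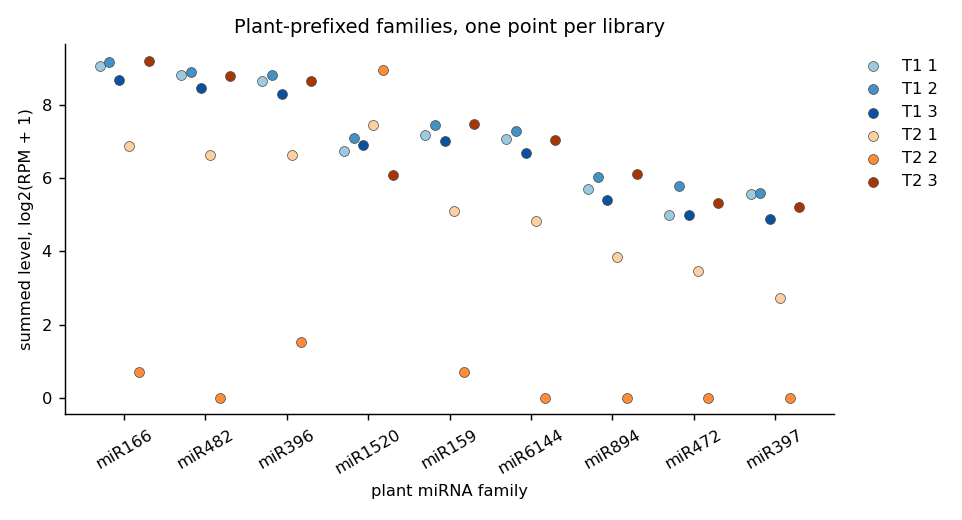
Summed RPM of 9 known families in each library (points, log2(RPM + 1) axis), with T1 (3400 m) and T2 (4200 m) in separate colours. In miR166, miR482, miR396 and miR159 the T2 3 point lies with the T1 points and T2 2 lies at or near 0, whereas for miR1520 T2 2 is the highest point at 499 RPM.

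The 9 names that the study placed in its regulatory networks were chosen by the study on these samples, so they are no independent evidence of a direction. The study drew separate networks for yaks against cattle and for yaks of different altitudes. The names of miR482, miR166, miR6471, miR6300 and miR5168 are in the cattle network only, so the study did not choose them for altitude. The counts and the median given here mix both kinds of name. Of the 7 that could be tested, 0 were called, 1 was estimated higher and 6 lower in T2 (median −0.89, against 0.28 for all names). ata-miR166d-3p_R1-20L21 was at 282, 292 and 212 RPM in T1 and 60.3, 0.629 and 300.0 RPM in T2 (log2 difference −3.07 ± 1.65). sly-miR482e-3p_R1-21L22 was at 114, 118 and 93.4 RPM in T1 and 26.0, 0 and 118 RPM in T2 (log2 difference −2.88 ± 1.54). Both followed their families, with T2 3 at the T1 level. gma-miR6300_R2-18L18 was at 3.26, 7.41 and 7.52 RPM in T1 and 0.928, 0 and 5.34 RPM in T2. stu-miR408b-5p_R4-21L21, of a family that in plants acts on copper proteins, was at 1.30, 7.41 and 1.19 RPM in T1 and 0.928, 0 and 2.46 RPM in T2. ppt-miR902f-3p_R15-1L20 was highest in T1 1, at 7.16 RPM, and at no more than 1.26 RPM in the other 5 libraries. The remaining 4 names were scarce. ata-miR5168-3p had reads in T1 3 (1.98 RPM) and T2 3 (3.69 RPM), and ath-miR5658_R1-19L21_8T-A in T1 2 (2.06 RPM) and T2 3 (0.410 RPM). ptc-miR6471_R18-4L21 had 6 and 2 reads in T2 1 and T2 2 and 0 in the other 4 libraries, and pab-miR396a had no more than 4 reads in any of the 6.

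The balance of the arms of a precursor depends little on the total of a library and was compared as log2 of 5p over 3p. Of 190 precursors with both arms listed, 82 had both arms at a mean of at least 1 RPM, and 0 (0.0%) were called, with a smallest limma adjusted p of 0.686. Before adjustment 4 (4.88%) had a p under 0.05 with a 2-fold difference, 2 higher (2.44%) and 2 lower (2.44%), and the ratio was estimated higher in T2 for 34 and lower for 48 (median −0.35). The more abundant arm was the same in the 6 libraries for 55 of the 82 precursors (67.1%), 5p in 35 and 3p in 20, and in 0 precursors did each T2 library have the opposite major arm from each T1 library. In m0822 both arms were abundant in each library. Its 5p arm was at 2161, 5148 and 5497 RPM in T1 and 10328, 20859 and 5221 RPM in T2, and its 3p arm at 2504, 2843 and 2853 RPM in T1 and 1281, 1583 and 2341 RPM in T2. The log2 ratio was −0.21, 0.86 and 0.95 in T1 and 3.01, 3.72 and 1.16 in T2 (difference 2.10 ± 0.88, limma adjusted p = 0.686), with T2 3 just above the T1 libraries. In m0598 the log2 ratio was lower, at 9.30, 7.87 and 8.002 in T1 and 6.61, 6.31 and 7.36 in T2 (difference −1.63 ± 0.74). Its 5p arm, at 15668 ± 9481 RPM in T1 and 12054 ± 4684 RPM in T2 (SD, n = 3 each), overlapped between the groups, and so did its 3p arm. m0266 had a lower ratio in T2 (difference −3.11 ± 1.32), and m0150 a higher one (2.12 ± 0.74). In both, the scarcer arm had no more than 11 reads in 5 or more of the 6 libraries. By the same rule m1302 (1.15 ± 0.64) and m0540 (−2.01 ± 0.95) came next, with a limma adjusted p of 0.686 for both.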

How the data were processed

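Lung small RNA was measured in 11 libraries, of which the 3 of T2 (4200 m) and the 3 of T1 (3400 m) were compared, grouped by their altitude and breed labels. Following the methods of the study, reads were trimmed by the authors, who set aside other small RNAs by comparison with Rfam, named known miRNAs from miRBase and predicted others with MIREAP, after a Bowtie2 search of the yak genome build BosGru_v2.0. The Bowtie2 version is not given in the sources used here. The authors deposited RPM values per name. Each column was divided by its smallest value above 0, and 4651 of 4651 values (100%) were whole within 0.01, which gave the reads. Reads carried no molecular identifiers used here, so floors of 3 reads cover counting error alone, and multiple names of a plant family can share reads.

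limma 3.58.1 in R 4.3.3, with a variance trend, was fitted to log2(RPM + 1) of names that averaged 1 RPM or more, with a mean per group for the 11 libraries and the contrast T2 minus T1. A call needed an adjusted p under 0.05 and 2-fold. Folds are ratios of mean RPM, and log2 differences, on the log2(RPM + 1) scale, understate changes of scarce names. Family sums and arm ratios were fitted in the same way, and library measures by exact permutation in scipy 1.17.1. Replicates were separate animals, and no pair of libraries agreed within sampling noise (smallest chi-square per degree of freedom 24.7). Same-numbered T1 and T2 libraries were not treated as paired.

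Names were taken by rule: the 10 most abundant, calls, up to 10 a direction without overlap at 2-fold, their other arms, the 9 network names, names exclusive to a group at 10 reads (0), up to 3 arm ratios a direction and the 5 most abundant families. Names with an unadjusted p under 0.05, m0860-5p and m0151-5p among them, were added after their values were seen. The members and lists were chosen with earlier results of these data known. Alternatives were DESeq2 1.42.0 and edgeR 4.0.16 on the reads, TMM and RLE scaling, a total without m1080-5p, no filter and stricter ones, pseudocounts of 0.1 and 10, a term for libraries with few known names, predicted names alone, the 6 libraries alone, a replicate block and leaving out libraries. The term for few known names marked T2 2 and the first cattle library. It did not mark T2 1, whose known names came to 644 RPM. The scripts were tested on simulated data holding names changed 4-fold. When the simulated SD was 0.9 of the mean, 60 changed names were tested. Of these, DESeq2 found 10, limma 4 and edgeR 0, with 1, 2 and 0 false calls. When the SD was 0.2 of the mean, 47 of 55 were found by limma. At the larger spread most 4-fold changes were thus missed, so 0 calls at such a spread do not show that names were unchanged. The 2 simulated spreads were fixed values, not matched to the measured within-group SD (median 1.07 on the log2 scale). Simulated names also varied independently of each other, so the shares found need not hold for the measured names.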

Additional observations from a re-analysis of the deposited data

How the results depend on the processing

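The 0 calls among names became 3 with DESeq2, 2 of 1291 names without a filter (m0150-5p and m1080-3p) and 17 with unadjusted p, and 0 to 4 when single libraries were left out (0 to 4 also for family sums), with 4 without T2 3 and 1 without T1 1. Other settings gave 0 calls, including a replicate block over the 9 yak libraries (0 calls, 29 at an unadjusted p under 0.05, smallest adjusted p 0.281). Same-numbered T1 and T2 libraries had correlations of deviations of 0.14, 0.15 and −0.08 and share only a number. Names without overlap, 21 of 310, were 8 of 114 with at least 10 reads in each of the 6 libraries, 34 with m1080-5p left out of the total and 33 under TMM. At 10 reads, 220 names were in both groups, 19 in T1 alone and 66 in T2 alone. A fixed number of reads favours deep libraries, and T2 1 was the deepest. Names at 10 reads numbered 154, 218 and 207 in T1 and 250, 198 and 205 in T2. Names expected at equal depth, with 1 read or more, averaged 427 in T1 and 385 in T2. The median of the network names was −1.89 at a pseudocount of 0.1 and −0.0095 without T2 1 and T2 2. For the names of the plant family list it was −2.59 at a pseudocount of 0.1, −0.32 at 10 and 0.13 without T2 1 and T2 2.

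Signs of some log2 differences turned. m1080-5p was at −0.13 under TMM and −0.15 under RLE. Without T2 1 and T2 2, ata-miR166d-3p_R1-20L21 was at 0.21, sly-miR482e-3p_R1-21L22 at 0.13, m0149-5p at −1.04, m0151-5p at −1.21, m1080-3p at −0.29, m0333-3p at −0.061, m0441-5p at −0.49, m0229-3p at −0.16 and m0598-5p at 0.13. With m1080-5p left out of the total, m0360-3p was at 0.19 and m0598-5p at 0.11. DESeq2 gave −0.034 for m0181-3p, and the term for few known names gave 0.048 for m0540-5p. Leaving out 1 library gave −0.080 to 0.66 for m1080-5p, −1.30 to 0.034 for m1355-5p, −0.13 to 1.36 for m0380-3p, −1.17 to 0.013 for m0867-5p, −0.18 to 1.04 for m0441-5p, −0.28 to 0.19 for m0360-3p, −0.49 to 1.34 for m0181-3p, −0.52 to 0.74 for ata-miR5168-3p, −0.64 to 0.17 for ath-miR5658_R1-19L21_8T-A, −1.17 to 0.34 for m0266-5p, −0.90 to 0.20 for m0598-5p and −0.86 to 0.38 for m0540-5p. The cause was not tested. m0360-5p stayed between −1.99 and −0.79 in each setting run. A level of 3 reads came to 0.557 RPM in T2 1 and 1.95 RPM in T1 1.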

Other observations

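The names that were high in T2 1 and T2 2 can be set beside the libraries outside the comparison. m0150-5p was at 0 RPM in each of the 3 T3 libraries from 5000 m and at 103 and 6.83 RPM in the 2 cattle libraries. m0149-5p was at 5.16, 5.41 and 33.9 RPM in T3 and at 1144 and 144 RPM in cattle, and m1080-3p was at 0 in T3 and at 49.0 and 1.71 RPM in cattle. The first cattle library, which like T2 2 held few known names (28 against 19), was the higher of the 2 for each. T2 1, the highest yak library for each, held 88 known names, counted at the largest depth, 5388032 reads. By abundance, known names came to 644 RPM in T2 1, 556 RPM in T2 2 and 315 RPM in the first cattle library. Each other library held 1540 RPM or more of them. Whether the levels of these names and of known names are linked was not tested. m0715-3p, lower in T2 than in T1, was at 189, 153 and 48.2 RPM in T3, with 2 of the 3 libraries within the T1 range.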
